A study of Mus musculus with 6 samples.

Results

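The 39 autophagy and lysosomal enzyme genes described here comprised the TFEB factors, the autophagy machinery and its cargo receptors, and lysosomal membrane proteins and hydrolases other than cathepsins. They were chosen by gene symbol, and all 39 were among the 18046 genes listed for each library. RNA was sequenced from T cells of C57BL/6 mouse spleen, labelled as 3 weeks of age. Naive CD4+ cells had been stimulated through CD3 and CD28 for 3 days in a Th1-polarizing culture with 20 µM LPC (n = 3) or with vehicle (n = 3). The antibodies and the polarizing culture were shared by both groups, and the labels neither spell out LPC nor name the vehicle. The labels do not say that replicate libraries are separate animals or separate cultures, so the p-values measure no more than the spread among these 6 libraries, and that spread may be technical.

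Autophagy encloses cytoplasm in a membrane that closes into an autophagosome and fuses with the lysosome, where acid hydrolases break down the contents. The ULK1 kinase complex starts the process, a lipid kinase complex built on Beclin 1 marks the membrane, and a ubiquitin-like conjugation system attaches proteins of the LC3 and GABARAP families to it. TFEB and its relative TFE3 are transcription factors that enter the nucleus when mTORC1 signalling is low and switch on autophagy and lysosome genes. In T cells autophagy is known to be induced by activation and to serve survival and metabolic supply.

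Each library listed 10002 to 10139 genes at 1 FPKM or more (fragments mapped to a gene, per length of its exons and per library total). Read depth, not recorded in the files, was estimated from the spacing of low values at 18.75 to 19.0 M reads per library. LPC libraries were spread along the first principal component (10.84, 3.03 and 21.10 in replicates 1, 2 and 3). Vehicle libraries lay at -15.76 to -8.43. LPC replicate 2 was nearest to the vehicle libraries, and LPC replicate 3 was farthest from them and had the highest FPKM sum, 641026. The 9 T cell identity markers summed to 2005 to 2095 FPKM in LPC libraries and to 2040 to 2085 FPKM in vehicle libraries, and none of the 9 passed the test. Among 10 macrophage and monocyte markers in the files, Csf1r and Adgre1 were at or below 0.05 FPKM in every library, and the list summed to 12.9 to 15.6 FPKM with LPC and 13.6 to 14.8 FPKM with vehicle, nearly all of it from Cd68 and Ly6c2. The NK cell markers Ncr1 and Klra8 and the neutrophil marker Elane were listed at 0 in all libraries, but other markers of both lists were not. Sums of the 4 NK cell markers were 0.43 to 1.48 FPKM with LPC and 0.31 to 0.8 FPKM with vehicle, nearly all from Klrd1. Those of the 4 neutrophil markers in the files were 1.5 to 2.87 FPKM with LPC and 1.52 to 2.41 FPKM with vehicle. Nearly all of that came from Cxcr2, which was tested and did not pass. The 6 dendritic cell markers summed to 1.30 to 1.64 FPKM with LPC and 2.87 to 2.94 FPKM with vehicle, almost entirely from Zbtb46, which fell (log2 change -0.68, limma adjusted p = 0.00139). The CD8 T cell markers Cd8a and Cd8b1 summed to 10.9 to 12.8 FPKM with LPC and 13.5 to 14.5 FPKM with vehicle without a call, and the 6 B cell markers to 0.60 to 0.95 FPKM with LPC and 1.15 to 1.21 FPKM with vehicle. The part of these markers in the falls described here was not tested.

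With LPC, 5 of the 38 tested members fell and none rose. The falls were in Optn, a cargo receptor gene, in Atg10 and Atg12, which belong to the conjugation system, in the factor gene Tfeb and in the LC3 gene Map1lc3a. The members that fell were 13.2% of those tested, against 7.91% of the 10138 tested genes, and none rose, against 5.82%. In either direction 13.2% of members and 13.7% of all tested genes changed, so the share of changed members was near the background. The test was limma-trend on log2(FPKM + 1), with Benjamini-Hochberg adjustment over all tested genes and a call at an adjusted p under 0.05. All log2 changes are LPC minus vehicle on this scale, which understates the change of low genes, and in bulk RNA fewer cells of a type and less RNA per cell cannot be told apart. No member changed over 2-fold, against 20 of all tested genes. No member was higher at an unadjusted p under 0.05 either, and 12 were lower, against 12.2% of all tested genes higher and 17.8% lower at that threshold. LPC libraries lay wholly below vehicle libraries for 13 members (34.2%, against a background of 20.7%) and wholly above for 2 (5.26%, against 13.7%), and the groups overlapped for 23. The median log2 change was -0.07 over the members and -0.04 over all tested genes. The 39th member, Wipi1, a phosphoinositide-binding protein gene, stayed under the filter of 1 FPKM in 3 libraries, with 0.97, 0.77 and 0.87 FPKM with LPC and 1.26, 0.89 and 1.09 FPKM with vehicle, which overlapped.

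**Figure D1:**
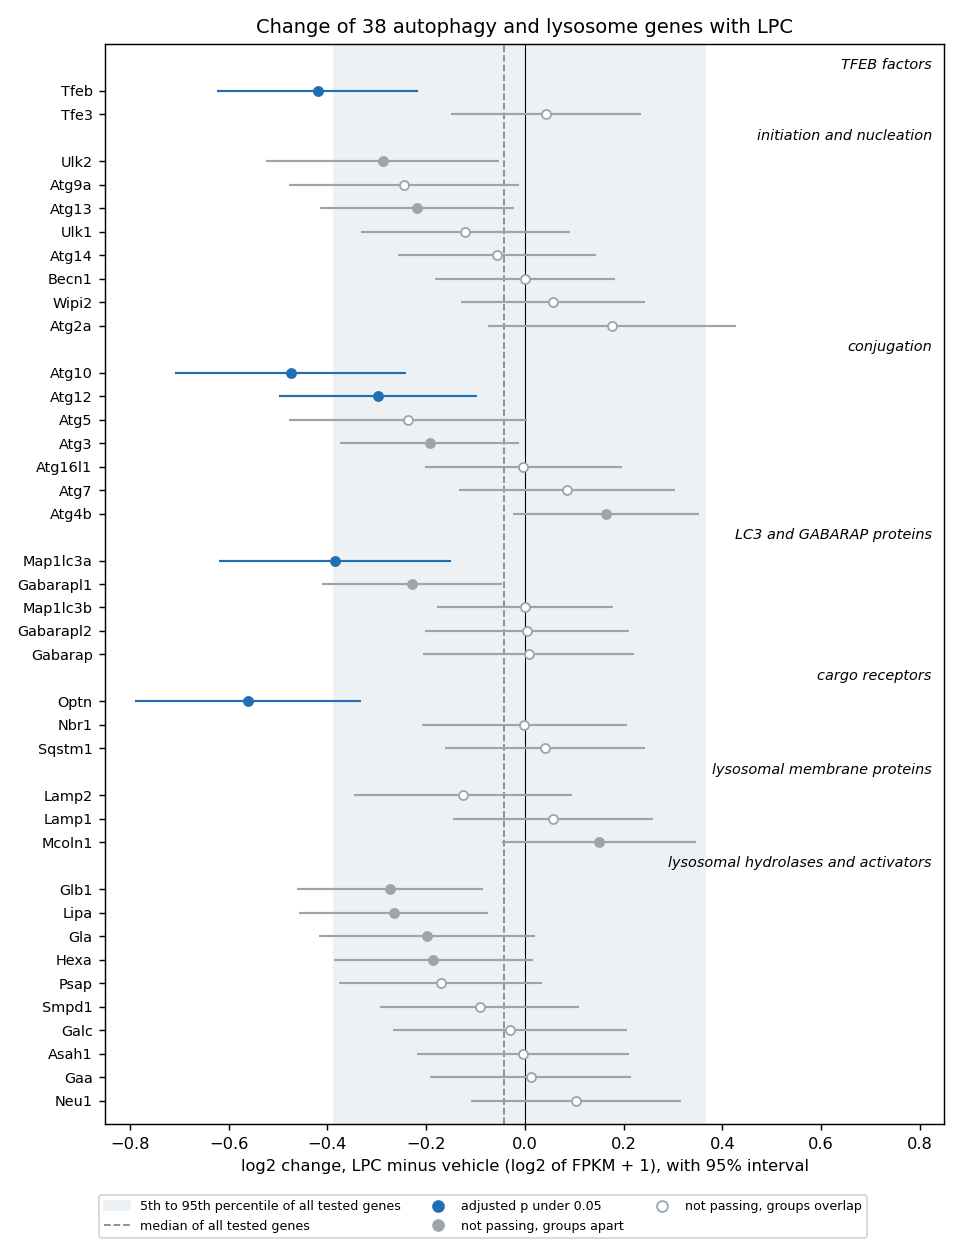
Log2 change (LPC minus vehicle, on log2 of FPKM + 1) of the 38 tested members with 95% intervals, grouped by role, where the shaded band spans the 5th to 95th percentile of all tested genes (-0.39 to 0.37) and the dashed line is their median. The 5 blue points are the members that passed the test, all lower with LPC, and filled grey points are members whose LPC and vehicle libraries did not overlap without passing.

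The factor gene Tfeb fell, and its relative Tfe3 did not pass. Tfeb had 6.45, 5.66 and 6.28 FPKM in LPC libraries, against 8.56, 8.81 and 8.22 FPKM in vehicle libraries. Every LPC library was below every vehicle library, with means of 6.13 ± 0.416 and 8.53 ± 0.296 FPKM in LPC and vehicle libraries (SD, n = 3 each). The log2 change was -0.42 (SE 0.095, limma adjusted p = 0.0124). Tfeb lies on chromosome 17 of GRCm38 at 47737037 to 47792416. It did not pass without vehicle replicate 1 (log2 change -0.42, adjusted p = 0.0621) or vehicle replicate 2 (-0.40, adjusted p = 0.0625). Tfe3 was listed at 26.84, 25.84 and 23.86 FPKM with LPC and 25.36, 25.68 and 23.15 FPKM with vehicle, with overlapping groups and a log2 change of 0.04 (95% interval -0.15 to 0.24, adjusted p = 0.785). Within each library, Tfeb stood at 0.240, 0.219 and 0.263 of the Tfe3 level with LPC and at 0.338, 0.343 and 0.355 of it with vehicle, a ratio that does not depend on how libraries are scaled. This ratio was chosen after the values were seen, and it is given without a test.

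TFEB and TFE3 bind a promoter element of lysosome and autophagy genes whose core is the palindrome CACGTG, so the promoters of the members were searched for those letters. RefSeq promoter windows (GRCm38.p6, 250 bases before to 50 after the start) were matched for 34 of the 39 members, all but Asah1, Atg12, Atg16l1, Becn1 and Map1lc3a. CACGTG, which reads the same on both strands, was found in 9 of the 34 (26.5%), compared with 12.3% of the 8244 tested genes with a window and 8.09% of the 27025 genes in the whole table. The longer form TCACGTG, on either strand and overlapping the core, was in 8 of the 34 (23.5%) and in 7.41% of tested genes. The 4 member windows with more than 1 copy are printed here 5′ to 3′ on the strand of the gene with CACGTG in capitals, as the promoters in which the element is most frequent. Their positions are chr8:13158911-13159210 (plus strand) for Lamp1, chr8:3500269-3500568 (plus strand) for Mcoln1, chr16:45158579-45158878 (plus strand) for Atg3 and chrX:134600956-134601255 (minus strand) for Gla.
Lamp1: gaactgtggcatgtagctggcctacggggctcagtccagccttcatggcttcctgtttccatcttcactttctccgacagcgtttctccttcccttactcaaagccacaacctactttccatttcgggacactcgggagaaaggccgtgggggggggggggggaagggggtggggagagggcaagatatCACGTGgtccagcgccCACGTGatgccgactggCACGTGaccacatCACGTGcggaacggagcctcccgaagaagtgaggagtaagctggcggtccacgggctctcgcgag
Mcoln1: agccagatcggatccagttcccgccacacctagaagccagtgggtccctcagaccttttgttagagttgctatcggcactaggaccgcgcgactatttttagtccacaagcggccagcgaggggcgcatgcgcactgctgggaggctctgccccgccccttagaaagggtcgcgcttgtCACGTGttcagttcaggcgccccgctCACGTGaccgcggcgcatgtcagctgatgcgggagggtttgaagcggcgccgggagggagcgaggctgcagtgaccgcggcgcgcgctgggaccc
Atg3: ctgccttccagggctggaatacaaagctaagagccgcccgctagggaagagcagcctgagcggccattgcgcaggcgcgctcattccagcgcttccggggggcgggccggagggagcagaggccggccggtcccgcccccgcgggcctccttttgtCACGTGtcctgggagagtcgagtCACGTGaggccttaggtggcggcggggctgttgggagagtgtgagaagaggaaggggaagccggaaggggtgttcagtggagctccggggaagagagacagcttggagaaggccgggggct
Gla: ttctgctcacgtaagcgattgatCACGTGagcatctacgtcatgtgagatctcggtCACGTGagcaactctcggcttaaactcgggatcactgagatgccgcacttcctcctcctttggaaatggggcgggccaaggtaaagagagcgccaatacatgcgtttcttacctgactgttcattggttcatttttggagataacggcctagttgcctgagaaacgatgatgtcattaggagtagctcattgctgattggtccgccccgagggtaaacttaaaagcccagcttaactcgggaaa

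In Lamp1 the 4 copies began 61, 45, 28 and 15 bases before the start, and in Mcoln1 the pair began 71 and 45 bases before it. The copies of Atg3 began 94 and 71 bases before the start and those of Gla 227 and 194 bases before it. The other members with a copy were Glb1 (48 bases before the start), Atg5 (14), Atg14 (1), Atg7 (132) and Gaa (140). None of these 9 members passed the test, in which 7.91% of all tested genes fell and 5.82% rose. Their log2 changes ran from -0.27 to 0.15 with a median of -0.06, and LPC libraries lay wholly below vehicle libraries for 3 of them and wholly above for 1 (20.7% and 13.7% of all tested genes). The 24 tested members whose windows held no copy had log2 changes from -0.56 to 0.18 with a median of -0.11, and 3 of them, Tfeb, Optn and Atg10, fell. Atg12 and Map1lc3a, which also fell, had no window and are in neither group. With so few members, a difference in calls between the groups was not tested. LPC libraries lay wholly below for 8 of the 24 and wholly above for 1. A match is a description of letters in the window, and a window without it says nothing about binding.

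None of the 8 tested members of the initiation and nucleation steps passed the test in limma, and 3 of them were lower at an unadjusted p under 0.05 (17.8% of all tested genes were). Atg13 encodes an adaptor that holds the ULK complex together. Its values were 38.12, 38.27 and 32.92 FPKM in LPC libraries and 43.71, 43.68 and 40.10 FPKM in vehicle libraries, so the LPC libraries were all lower (log2 change -0.22, adjusted p = 0.128). Becn1, which encodes Beclin 1, had the highest mean level of the role, with 40.33, 43.06 and 39.27 FPKM with LPC and 42.59, 39.80 and 40.28 FPKM with vehicle. The groups overlapped, with a 95% interval of the log2 change of -0.18 to 0.18. Exons of Cntd1 on the opposite strand cover 27.9% of the exon bases of Becn1, and use of strand in counting is not given in the sources used here, so its level is less certain. The kinase gene Ulk2 had 6.83, 7.73 and 5.65 FPKM with LPC and 8.58, 8.51 and 8.08 FPKM with vehicle, again without overlap (log2 change -0.29, adjusted p = 0.0958). Ulk2 passed without LPC replicate 2 (-0.38, adjusted p = 0.0302). The log2 changes of its relative Ulk1 (-0.12), of the lipid scramblase gene Atg9a (-0.24), of Atg14 (-0.06), which directs Beclin 1 to autophagy, of the lipid transfer gene Atg2a (0.18) and of Wipi2 (0.06), which recruits the conjugation machinery, did not pass, and their groups overlapped.

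The conjugation system links ATG12 to ATG5, through the activating enzyme ATG7 and the conjugating enzyme ATG10, and the product then helps ATG3 to place LC3 on lipid. Of its 7 tested members Atg10 and Atg12 fell and none rose, while 7.91% of all tested genes fell and 5.82% rose. Atg10 had 1.48, 2.01 and 1.38 FPKM in LPC libraries and 2.76, 2.56 and 2.56 FPKM in vehicle libraries. Every LPC library was below every vehicle library (means 1.62 ± 0.339 FPKM with LPC and 2.63 ± 0.115 FPKM with vehicle, SD, n = 3 each), and the log2 change was -0.47 with an SE of 0.11 (limma adjusted p = 0.0133). Atg10 was among the least expressed members, at percentile 9.0 of the tested genes by mean level, and lies on chromosome 13 at 90935348 to 91224725. It did not pass without LPC replicate 1 (-0.44, adjusted p = 0.0606) or vehicle replicate 1 (-0.45, adjusted p = 0.0621). Atg12, the ubiquitin-like protein gene, had 18.26, 21.06 and 17.83 FPKM with LPC and 24.56, 23.43 and 22.76 FPKM with vehicle. These groups also lay apart, and the call was at the edge of the threshold (log2 change -0.30, SE 0.093, adjusted p = 0.0494). Atg12, on chromosome 18 at 46732417 to 46741724, passed without LPC replicate 2 and in none of the other leave-1-out fits, where its log2 changes ran from -0.32 to -0.25. The adjusted p was 0.13 and 0.0908 without LPC replicates 1 and 3, and 0.198, 0.154 and 0.0865 without vehicle replicates 1, 2 and 3. It also did not pass after median centring (-0.25, adjusted p = 0.0598), after removal of GC and length trends (-0.15, adjusted p = 0.125) or among genes with a mean of 5 FPKM or more (-0.30, adjusted p = 0.0507).

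Atg3 had the highest mean level of the conjugation genes. It was listed at 29.12, 30.48 and 28.25 FPKM with LPC and 34.85, 33.38 and 32.58 FPKM with vehicle, and its groups did not overlap, yet it did not pass (log2 change -0.19, adjusted p = 0.145). The protease gene Atg4b, whose product trims LC3 before conjugation, was one of the 2 members with LPC libraries wholly above vehicle libraries, at 19.64, 18.42 and 19.78 FPKM with LPC and 17.31, 16.31 and 17.69 FPKM with vehicle (0.16, adjusted p = 0.226). Atg5 had 11.94, 16.83 and 13.80 FPKM with LPC and 16.99, 16.82 and 16.44 FPKM with vehicle. LPC replicate 2 stood at the vehicle level while the other LPC libraries were lower, and Atg5 did not pass (-0.24, adjusted p = 0.173) except without that library (-0.36, adjusted p = 0.0268). Atg7 (0.09) and Atg16l1 (0.00) did not pass, and their groups overlapped.

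Of the 5 LC3 and GABARAP genes, whose products coat the autophagosome and dock cargo receptors, only Map1lc3a passed the test. It fell, while 7.91% of all tested genes fell and 5.82% rose, and 5 genes are too few to set a share apart from that. Map1lc3a had 10.39, 7.80 and 9.05 FPKM in LPC libraries, against 11.99, 11.28 and 13.05 FPKM in vehicle libraries. The groups did not overlap (means 9.08 ± 1.30 FPKM with LPC and 12.1 ± 0.891 FPKM with vehicle, SD, n = 3 each), and the log2 change was -0.38 with an SE of 0.11 (limma adjusted p = 0.0346). It lies on chromosome 2 at 155276364 to 155278073. Map1lc3a did not pass without LPC replicate 2 (-0.29, adjusted p = 0.0697). The same held when vehicle replicate 1 (-0.39, 0.11), replicate 2 (-0.43, 0.0561) or replicate 3 (-0.33, 0.106) was left out, and with median centring (-0.34, 0.0861) or quantile normalization (-0.32, 0.0845). Its close relative Map1lc3b was listed at 42.36, 41.89 and 43.31 FPKM with LPC and 44.63, 41.97 and 40.97 FPKM with vehicle, with a 95% interval of the log2 change of -0.18 to 0.18. In each library Map1lc3a stood at 0.245, 0.186 and 0.209 of the Map1lc3b level with LPC and at 0.269, 0.269 and 0.319 of it with vehicle, a ratio chosen after the values were seen and not tested.

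Gabarap had the highest level of all members, with 220.93, 205.25 and 256.63 FPKM in LPC libraries and 233.45, 223.31 and 219.43 FPKM in vehicle libraries. It supplied 60.3% to 63.9% of the summed FPKM of the 5 genes with LPC and 60.2% to 61.6% with vehicle, whereas Map1lc3a supplied 2.25% to 2.93% with LPC and 3.09% to 3.59% with vehicle. The groups of Gabarap overlapped (log2 change 0.01, adjusted p = 0.967), as did those of Gabarapl2 (0.00, adjusted p = 0.98). Gabarapl1 had 29.72, 30.50 and 32.43 FPKM with LPC and 37.90, 35.89 and 35.28 FPKM with vehicle, which did not overlap, and it did not pass (-0.23, adjusted p = 0.0892). With GC and length trends removed it passed (-0.29, adjusted p = 0.0121).

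**Figure D2:**
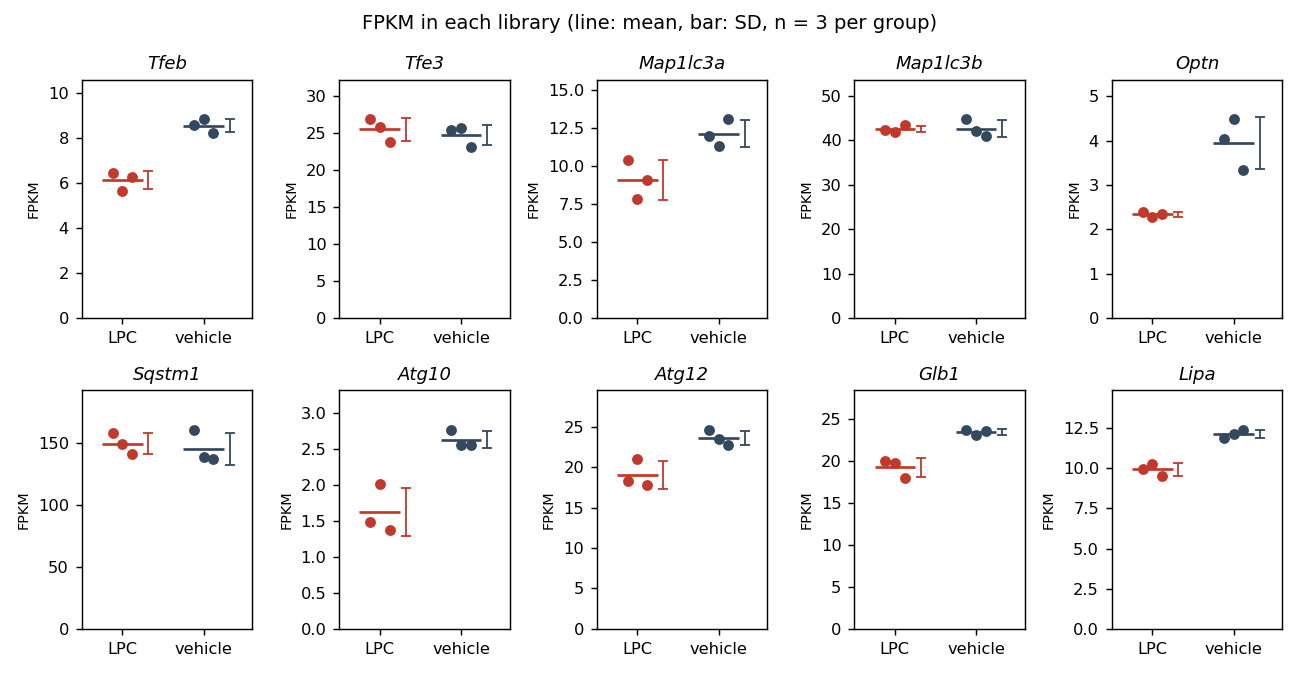
FPKM in each LPC (red) and vehicle (blue-grey) library for 10 members, with the mean as a line and the SD as a bar (n = 3 per group, axes from 0). LPC libraries lie below all vehicle libraries for Tfeb, Map1lc3a, Optn, Atg10, Atg12, Glb1 and Lipa, while the groups overlap for Tfe3, Map1lc3b and Sqstm1.

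Cargo receptors bind ubiquitin-marked cargo and LC3 together. Optn, which encodes optineurin, had the largest fall of the tested members. It was listed at 2.40, 2.28 and 2.34 FPKM in LPC libraries, against 4.04, 4.48 and 3.33 FPKM in vehicle libraries. The LPC libraries lay close together below all vehicle libraries (means 2.34 ± 0.0600 FPKM with LPC and 3.95 ± 0.580 FPKM with vehicle, SD, n = 3 each), and the log2 change was -0.56 with an SE of 0.11 (limma adjusted p = 0.00568). Optn lies on chromosome 2 at 5020521 to 5064399, at expression percentile 14.7 of the tested genes. It passed in all 6 fits that left out 1 library, with log2 changes of -0.65 to -0.48. The p62 gene Sqstm1, the most abundant receptor, had 157.80, 148.83 and 140.76 FPKM with LPC and 160.01, 138.47 and 137.14 FPKM with vehicle, with overlapping groups (0.04, 95% interval -0.16 to 0.24, adjusted p = 0.811). Nbr1, a receptor related to p62, also did not pass (0.00, adjusted p = 0.995).

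The 3 lysosomal membrane genes gave no call in limma, where 5.82% of all tested genes rose and 7.91% fell. None was at an unadjusted p under 0.05 (12.2% of all tested genes were higher and 17.8% lower). Lamp1, which encodes a main glycoprotein of the lysosomal membrane, had 62.16, 75.63 and 71.36 FPKM in LPC libraries and 69.85, 67.36 and 63.24 FPKM in vehicle libraries, which overlapped (log2 change 0.06, adjusted p = 0.724). Exons of Grtp1 on the opposite strand cover 7.94% of its exon bases. Lamp2, which encodes its partner glycoprotein, did not pass (-0.13, adjusted p = 0.432). Mcoln1 encodes the lysosomal calcium channel TRPML1 and was the other member with LPC libraries wholly above vehicle libraries, at 11.52, 11.10 and 11.65 FPKM with LPC and 10.57, 10.54 and 9.51 FPKM with vehicle (0.15, adjusted p = 0.29).

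None of the 10 hydrolase and activator genes passed the test in limma, and 2 were lower at an unadjusted p under 0.05, a share near the 17.8% of all tested genes. Glb1, which encodes beta-galactosidase, came nearest, with 19.96, 19.82 and 17.95 FPKM in LPC libraries and 23.68, 23.06 and 23.58 FPKM in vehicle libraries (log2 change -0.27, adjusted p = 0.0529). Its groups lay apart, and it passed with quantile normalization (-0.26, adjusted p = 0.0459), after removal of GC and length trends (-0.26, 0.0144) and without LPC replicate 2 (-0.29, 0.0417). Glb1 shares 6.89% of its exon bases with Tmppe on the same strand. Lipa encodes lysosomal acid lipase, which frees cholesterol and fatty acids from lipid esters, and had 9.96, 10.28 and 9.52 FPKM with LPC and 11.90, 12.12 and 12.36 FPKM with vehicle. Those groups also did not overlap (-0.27, adjusted p = 0.0635), and Lipa passed without LPC replicate 2 (-0.29, adjusted p = 0.0451).

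Gla and Hexa, which encode alpha-galactosidase A and the alpha subunit of beta-hexosaminidase, showed the same separation at smaller size. Gla had 7.42, 8.95 and 8.29 FPKM in LPC libraries and 9.12, 9.16 and 10.43 FPKM in vehicle libraries (log2 change -0.20, adjusted p = 0.207). Hexa had 15.56, 13.58 and 16.27 FPKM with LPC and 17.52, 17.27 and 17.13 FPKM with vehicle (-0.19, adjusted p = 0.201). Psap, the precursor of the saposins that help hydrolases reach lipids, was the most abundant of this role at 89.59, 81.62 and 71.97 FPKM with LPC and 94.13, 86.99 and 91.93 FPKM with vehicle, and its groups overlapped (-0.17, adjusted p = 0.249). The log2 changes of Smpd1 (-0.09), which encodes acid sphingomyelinase, of Galc (-0.03), the galactosylceramidase gene, of Asah1 (0.00), the acid ceramidase gene, of Gaa (0.01), the acid alpha-glucosidase gene, and of Neu1 (0.10), the lysosomal sialidase gene, did not pass, with overlapping groups. LPC libraries lay wholly below for 4 of the 10 and wholly above for none, against 20.7% and 13.7% of all tested genes.

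A further 137 genes of autophagy and the lysosome had calls in both directions. Of 130 tested, 6 rose and 7 fell (4.62% and 5.38%), against 5.82% and 7.91% of all tested genes. Their median log2 change was -0.04, as over all tested genes. Among 33 further hydrolases and helpers, 3 rose and 3 fell. Nagpa, which uncovers the mannose 6-phosphate tag that sends enzymes to lysosomes, had 6.56, 5.32 and 6.59 FPKM in LPC libraries and 3.70, 3.68 and 4.53 FPKM in vehicle libraries, which did not overlap. Its log2 change of 0.53 (limma adjusted p = 0.0091) was the largest rise among the further genes that passed. Among those that fell, Dnase2a, which encodes a lysosomal DNA-digesting enzyme, had 2.25, 2.12 and 2.23 FPKM with LPC and 3.59, 2.76 and 3.43 FPKM with vehicle, again without overlap (log2 change -0.41, adjusted p = 0.022). Of 24 further machinery genes, Atg9b, the paralog of Atg9a, rose by 0.35 on the log2 scale (0.0308) and Tecpr1, whose product binds the ATG12-ATG5 conjugate, had a log2 change of -0.40 (0.0382). Among 11 further receptors, the mitochondrial prohibitin gene Phb2 rose by 0.32 on the log2 scale (0.0297) and the receptor gene Calcoco1 had a log2 change of -0.41 (0.0161).

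Of 23 further lysosomal membrane genes, Lamtor1, which anchors the mTORC1 scaffold on the lysosome, rose by 0.32 on the log2 scale (limma adjusted p = 0.0429) and none fell. None of 17 V-ATPase genes, which encode the proton pump, passed in limma, with 1 higher and none lower at an unadjusted p under 0.05 (12.2% and 17.8% of all tested genes). Among 22 genes that control TFEB and mTORC1 none rose and 2 fell (9.09%), against 5.82% and 7.91% of all tested genes. Rheb, the gene of a small GTPase that activates mTORC1, had 32.17, 41.40 and 39.96 FPKM with LPC and 48.42, 46.17 and 49.14 FPKM with vehicle (log2 change -0.34, limma adjusted p = 0.0408). Zkscan3, the gene of a repressor of autophagy genes, had 4.48, 4.70 and 4.02 FPKM with LPC and 6.08, 6.35 and 5.82 FPKM with vehicle (-0.39, 0.019). In both genes every LPC library was below every vehicle library. The 13 calls among the further genes depended on single libraries. Without vehicle replicate 1 none of the 13 passed (adjusted p = 0.0519 to 0.145), without vehicle replicate 2 only 2 did (0.0593 to 0.218 for the rest), and without LPC replicate 1 or vehicle replicate 3 only 4 did in each fit (0.0501 to 0.132 and 0.0631 to 0.109 for the rest). Without LPC replicate 3 they numbered 9 (0.073 to 0.118 for the rest) and without LPC replicate 2 they numbered 11 (0.0644 and 0.0674 for the rest). All 13 kept their sign in those 6 fits. Median centring also ended 5 of the calls, among them those of Tecpr1 (-0.35, limma adjusted p = 0.072), Lamtor1 (0.37, 0.0605) and Rheb (-0.29, 0.0913), and that of Idua, an iduronidase gene (-0.35, 0.0629). With no filter on low values 12 of the 13 calls were lost (adjusted p = 0.0551 to 0.163).

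**Figure D3:**
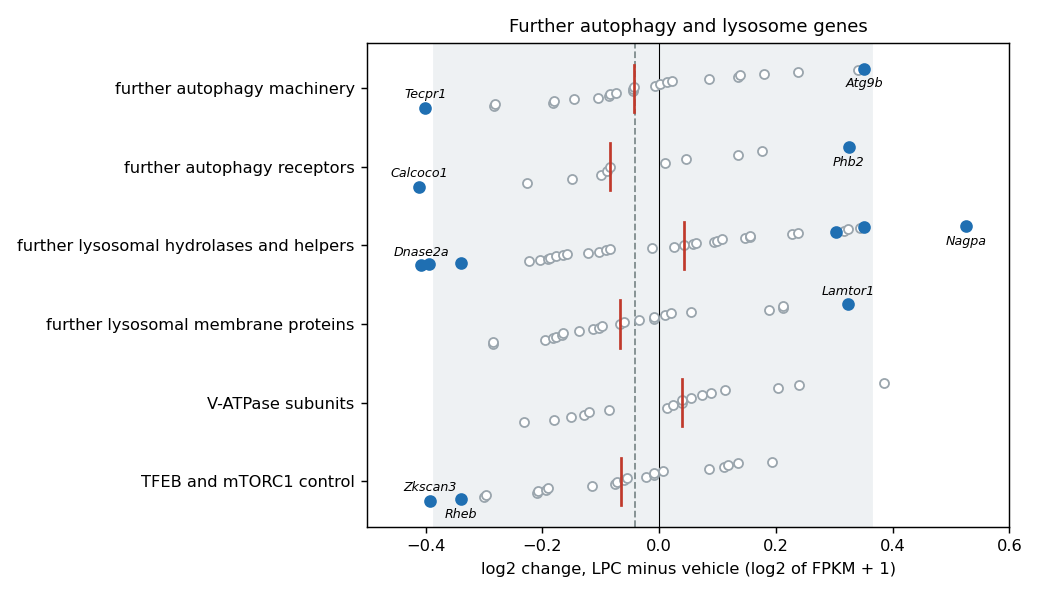
Log2 change (LPC minus vehicle, on log2 of FPKM + 1) of each of the 130 tested further genes by list, with the list median as a red line, all tested genes as a shaded band (5th to 95th percentile) and their median as a dashed line. Blue points are the 13 genes that passed the test, some of them named, 6 to the right of 0 and 7 to the left.

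Across all tested genes the log2 change moved with transcript composition, and the members were read against that trend. The median log2 change was -0.11 in the lowest of 4 equal groups of genes by GC share, -0.07 and -0.01 in the middle groups and 0.04 in the highest. Atg10 (40.3% GC) and Atg12 (44.3% GC) were in the lowest group and Optn (50.4%) in the next. Tfeb (61.4%) and Map1lc3a (63.1%) were in the highest. The shares of all genes that fell were 9.78%, 8.75%, 7.11% and 6.29% in the 4 groups from low to high GC. The part of GC share in the falls of members was not tested. The length and GC share used were medians over a gene's transcripts and may differ from those of the transcripts expressed here. The median length was only 551 bases for Tfeb and 720.5 bases for Gabarapl1, so their values after trend removal are less certain. After each library's trend with GC share and length was removed, Tfeb (-0.55, limma adjusted p = 0.00293), Map1lc3a (-0.47, 0.00363), Optn (-0.51, 0.00786) and Atg10 (-0.39, 0.0229) passed, while Atg12 did not. In that fit Glb1, Gabarapl1 and Atg9a (-0.24, 0.0419) also passed, which gave 7 falls among the 38 members. Calls over all genes rose as well, to 18.9% of 9736 genes in either direction, against 13.7% as reported. Of those calls, 50.7% were higher with LPC after trend removal, and 42.4% as reported. The either-direction share is thus not the like of the 7 falls, and the share of all genes that fell was smaller.

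**Figure D4:**
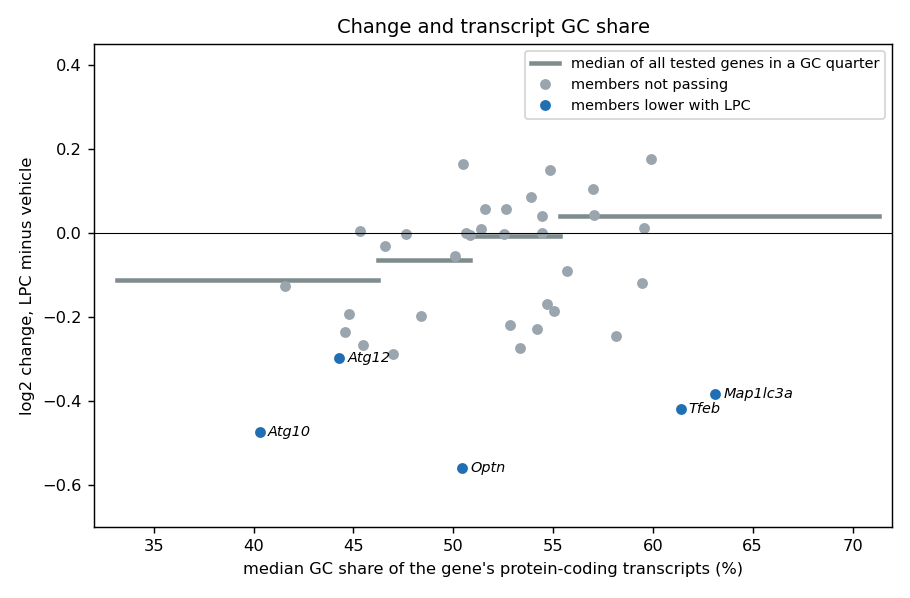
Log2 change (LPC minus vehicle) of the 38 tested members against the median GC share of their protein-coding transcripts, with the median over all tested genes in each of 4 equal GC groups as a grey bar (-0.11, -0.07, -0.01 and 0.04 from low to high GC). Of the members that fell (blue), Atg10 and Atg12 lie in the lowest GC group, Optn in the next, and Tfeb and Map1lc3a in the highest. The part of GC share in these falls was not tested.

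The number of members that fell depended on single libraries and on settings. It was 3, 8 and 4 when LPC replicates 1, 2 and 3 were left out in turn, and 1, 2 and 3 when vehicle replicates 1, 2 and 3 were, against 5 with all libraries. The share of all tested genes that changed in either direction, which is not a share of falls alone, moved too. It was 6.92%, 20% and 11.3% without LPC replicates 1, 2 and 3, and 5.06%, 5.58% and 9.38% without vehicle replicates 1, 2 and 3. With all libraries it was 13.7%. Of these calls over all genes, 39.9% to 47.7% were higher with LPC in the leave-1-out fits and 42.4% with all libraries, so the shares that fell were smaller. With no filter on low values none of the 5 passed (limma adjusted p = 0.0507 to 0.115, with the same log2 changes). In that fit 16899 genes were tested and 464 changed in all. After median centring 3 members fell and none rose, while the share of all calls that were higher with LPC was 53.1%, against 42.4% without centring. No member rose under any of the 13 alternatives, and all 5 falls kept their sign in each alternative that tested the gene.

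**Figure D5:**
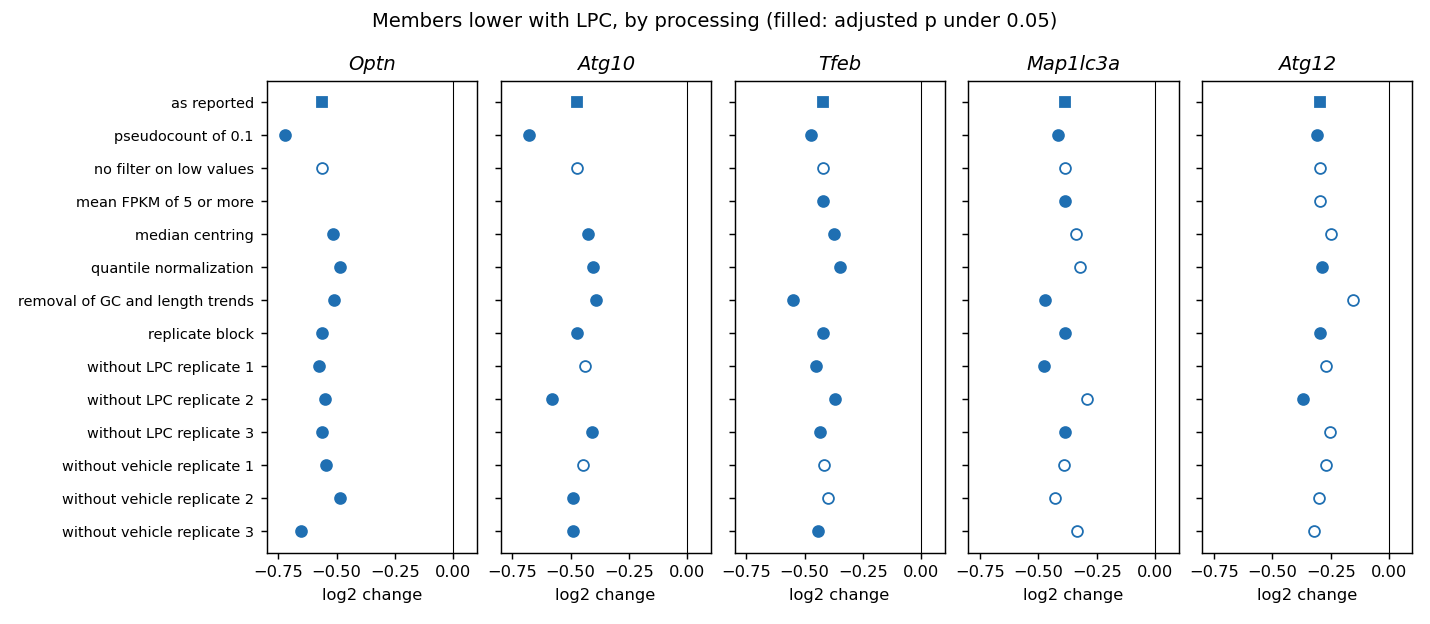
Log2 change (LPC minus vehicle) of the 5 members that fell, as reported (square) and under each alternative (circles), filled where the adjusted p was under 0.05. Optn is filled in all 6 fits that left out 1 library, Tfeb and Atg10 in 4 each, Map1lc3a in 2 and Atg12 in 1, and Optn and Atg10 have no point at a mean of 5 FPKM or more, where they were not tested.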

How the data were processed

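The deposited values are FPKM, 1 file per library, rounded to hundredths. Per the labels' protocols, the authors sequenced on a BGISEQ-500, aligned reads to GRCm38 with Bowtie2 and obtained FPKM by expectation maximization. No version, setting or strand use is given in the sources used here. FPKM scales with a library's total, so a few abundant genes can shift the rest, and reads that fit several genes were shared by estimation, which makes near-identical copies less certain. FPKM values are not counts, so no count model was fitted.

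Symbols turned into dates (24) were restored by gene identifier. RefSeq tables of GRCm38.p6, in which 99.3% of gene identifiers were found, supplied coordinates and promoters. The limma-trend model (limma 3.58.1, R 4.3.3), with treatment as its only term, was tested on simulated data and fitted to log2(FPKM + 1). It took in the 10138 genes that reached 1 FPKM in at least 3 libraries. GC share and length were medians over GENCODE protein-coding transcripts, known for 96.0% of tested genes, and trends were removed with natural splines (4 degrees of freedom). Values in every library are given for members that passed, for the most abundant member of each role and for members whose groups lay apart, and up to 4 changed genes are named per further list, apart from some that are not reported here. Alternatives were a pseudocount of 0.1, no filter, a mean of 5 FPKM or more, median centring, quantile normalization, trend removal, a replicate block and leaving out each library. The members and lists were chosen with earlier results of these data known.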

Additional observations from a re-analysis of the deposited data

How the results depend on the processing

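The number of members that fell was 5 as reported, 0 with no filter on low values, 2 at a mean of 5 FPKM or more (where Optn and Atg10 were not tested), 3 with median centring, 11 with the replicate number as a block and 1 to 8 when 1 library was left out. The number of tested genes that changed was 464 with no filter, 2841 with the block and 513 to 2026 without 1 library. Further machinery genes that changed numbered 0 with no filter, 1 at a mean of 5 FPKM or more, with median centring or with quantile normalization, 4 after trend removal, 6 with the block and 0 to 5 without 1 library. Further receptors numbered 0 with no filter and 0 to 2 without 1 library. Further hydrolases numbered 1 with no filter, 11 with the block and 0 to 7 without 1 library. Further membrane genes numbered 0 with no filter, median centring or quantile normalization, 3 with the block and 0 to 2 without 1 library. V-ATPase genes numbered 1 after trend removal, 2 with the block and 0 to 2 without 1 library. TFEB and mTORC1 control genes numbered 0 with no filter, 1 with median centring, 4 with the block and 0 to 4 without 1 library. The cause of these shifts was not tested. The median change of the members stayed at -0.09 to -0.03.

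The labels do not say what libraries with the same replicate number shared. Their deviations from the group mean correlated at 0.018, 0.562 and 0.406 over genes for numbers 1 to 3. LPC replicate 2 and vehicle replicate 3 correlated at -0.447, and LPC replicate 3 and vehicle replicate 2 at -0.498. Vehicle replicate 1 correlated best with LPC replicate 3 (0.065). Whether numbers 2 and 3 were pairs was not tested, and the reported fit has no term for pairs. Under the block, Ulk2 (limma adjusted p = 0.0218), Atg13 (0.036), Atg9a (0.0301), Gabarapl1 (0.0351), Glb1 (0.0146) and Lipa (0.0197) also passed. Calls rose over all genes too, to 28% of tested genes in either direction, against 13.7% in the reported fit. Of the calls under the block, 41.5% were higher with LPC.

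Depth is known only as an estimate, and the narrowest 95% interval of a member, that of Map1lc3b, spanned log2 changes of -0.18 to 0.18. An estimated change smaller than this would therefore not have reached an unadjusted p under 0.05 in limma for any member. The size of true change that 3 libraries a group can detect was not computed. After adjustment larger changes also went without a call, such as those of Ulk2 (-0.29), Glb1 (-0.27) and Lipa (-0.27). The smallest change of a member that passed was that of Atg12 (-0.30).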
